A study of Mus musculus with 18 samples.

Results

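The RNA fragments examined here came from the liver of editing-deficient mice, Adar-/-; Mavs-/-, and were those whose survival of an RNase digestion differed, or did not differ, with the addition of MDA5. In 3 libraries total RNA was incubated with recombinant MDA5ΔCARD before digestion with an RNase A and T1 mix (MDA5-protected), in 3 libraries the RNA was digested without the protein (RNase only), and 3 libraries of undigested RNA (Input RNA) served as the shared control of both digested fractions in peak calling. The mice were 8 to 9 days old, and all of them, the Mavs-/- controls included, lacked Mavs, so that no library holds RNA from a mouse with intact MDA5 signalling. MDA5ΔCARD lacks the N-terminal signalling part of the protein and met naked, refolded RNA in a tube, so that protection describes binding to purified RNA and not binding inside a hepatocyte. Peaks of the 6 digested libraries that overlapped or touched on the same strand were merged into 12584 regions. A region was called MDA5-only where all 3 MDA5-protected and no RNase only library had a peak in it, RNase-only in the reverse case, and all-6 where every digested library had a peak. These sets held 230 MDA5-only regions (1.83% of all regions), 961 RNase-only regions (7.64%) and 161 all-6 regions (1.28%). Of 4665 genes with a peak on their own strand in any of the 6 libraries, 63 were MDA5-only (1.35%), 545 RNase-only (11.7%) and 189 all-6 (4.05%).

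MDA5, the product of Ifih1, is a cytoplasmic sensor that assembles into filaments along double-stranded RNA and signals through its CARD domains to MAVS, which leads to interferon production. ADAR1, the product of Adar, deaminates adenosines to inosines in double-stranded RNA and thereby weakens base pairing, and in its absence endogenous duplexes formed by inverted repeats can be seen by MDA5. RNase A and RNase T1 cut unpaired RNA after pyrimidines and after guanosines, so that fragments survive where the RNA is paired or where a bound protein covers it. By design an RNase only library records what resisted digestion by itself, and an MDA5-protected library is meant to add what the protein covered. The peak lists described below were not additive in this way.

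The sequences of a few exonic regions are given as examples of members of each set and do not stand for the sets. The first 5 lines are MDA5-only regions, 4 of them chosen for their high GC content and 1 as an exon of Ifih1, the next 2 lines are all-6 regions and the last 2 are RNase-only regions. Capitals mark the longest run made of G and C alone. They were read from GENCODE M21 transcripts at the GRCm38 coordinates given, and were picked after the values were seen.
Eif3f, chr7:108934653-108934719, plus strand, exon 1 of 8: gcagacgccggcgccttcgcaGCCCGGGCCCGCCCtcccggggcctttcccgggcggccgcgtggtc
Dmwd, chr7:19076415-19076512, plus strand, exon 1 of 5: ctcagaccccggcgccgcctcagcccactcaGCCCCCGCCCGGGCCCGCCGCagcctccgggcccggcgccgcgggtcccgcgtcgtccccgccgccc
Gm42984, chr5:44226622-44226702, plus strand, exon 1 of 2: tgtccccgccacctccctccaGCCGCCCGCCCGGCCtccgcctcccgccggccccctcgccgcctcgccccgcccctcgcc
Dbp, chr7:45706947-45707013, plus strand, exon 2 of 4: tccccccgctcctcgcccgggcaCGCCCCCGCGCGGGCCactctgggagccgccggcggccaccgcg
Ifih1, chr2:62606973-62607096, minus strand, exon 9 of 16: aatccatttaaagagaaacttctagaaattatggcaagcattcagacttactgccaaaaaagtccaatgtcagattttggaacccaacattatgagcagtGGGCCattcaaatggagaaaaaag
Mtcl1, chr17:66448907-66449091, minus strand, exon 1 of 14: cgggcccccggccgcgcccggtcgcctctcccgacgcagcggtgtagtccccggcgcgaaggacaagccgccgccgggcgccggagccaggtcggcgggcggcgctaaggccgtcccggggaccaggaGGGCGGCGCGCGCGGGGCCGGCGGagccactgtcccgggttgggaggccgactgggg
Pdcd7, chr9:65346478-65346563, plus strand, exon 1 of 5: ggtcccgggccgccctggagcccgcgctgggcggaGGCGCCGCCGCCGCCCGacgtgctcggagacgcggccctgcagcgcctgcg
Serpinb1a, chr13:32845309-32845476, minus strand, exon 6 of 7: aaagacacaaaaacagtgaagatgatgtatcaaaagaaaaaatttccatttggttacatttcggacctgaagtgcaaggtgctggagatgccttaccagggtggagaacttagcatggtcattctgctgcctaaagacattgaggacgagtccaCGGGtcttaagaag
Slc26a3, chr12:31466397-31466630, plus strand, exon 17 of 21: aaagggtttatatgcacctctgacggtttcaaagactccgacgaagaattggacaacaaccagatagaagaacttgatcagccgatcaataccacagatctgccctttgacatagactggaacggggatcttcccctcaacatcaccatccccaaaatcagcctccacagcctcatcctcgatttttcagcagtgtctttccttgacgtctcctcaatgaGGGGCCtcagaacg
The GC content was 83.6% in Eif3f, 86.7% in Dmwd, 86.4% in Gm42984, 86.6% in Dbp, 82.2% in Mtcl1 and 84.9% in Pdcd7, with runs of G and C of 14 to 24 nt. It was 36.3% in exon 9 of Ifih1, 42.9% in Serpinb1a and 48.3% in Slc26a3. Sequence was at hand only for regions that lie wholly in an annotated exon, which were 11 of the 230 MDA5-only regions, 284 of the 961 RNase-only regions and 16 of the 161 all-6 regions, and a comparison of composition between the sets is therefore void.

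The labels were checked first. Adar had an exonic peak, in exon 2 of 15, in input replicates 2 and 3 of Adar-/-; Mavs-/- (areas of 915.2 and 685.9) and in no other library, and Mavs was without a peak throughout the 18 libraries. Which exons the deletion of Adar removes is not given in the sources used here, so that these peaks do not test the label. All 9 hepatocyte marker genes (Alb, Ttr, Apoa1 and others) had an exonic peak in each input library, with a summed area of 334992 to 346310, and none had one in any of the 6 digested libraries. A peak's area is the space under its significance curve, which grows with sequencing depth, so areas were ranked only within a library. In contrast, exonic peaks of genes known from the epithelium of the large intestine, a list of 20 genes drawn up after their peaks were noticed, were absent from the input libraries and present in all digested ones. Of these 20 genes, 19 to 20 had an exonic peak in the RNase only libraries (summed area 109746 to 172358) and 13 to 15 in the MDA5-protected libraries (22355 to 24224). Of 6 smooth muscle genes, 6 had an exonic peak in each RNase only library, 1 to 4 in the MDA5-protected libraries and 0 to 1 in input RNA (Tagln in input replicate 3, area 538.1), and 6 genes of the small intestine were at 0 in every library. Erythroid (2 to 3 of 5 markers), Kupffer cell (3 to 4 of 6) and endothelial markers (3 to 4 of 5) had exonic peaks in input RNA and none in the digested libraries, and 4 lymphocyte markers had none anywhere. Stellate cell and fibroblast markers had 1 to 3 of 5 in input, 2 to 4 in RNase only and 0 to 1 in MDA5-protected libraries. Of the 4 cholangiocyte markers 3 had an exonic peak in each RNase only library, 1 to 2 in the MDA5-protected libraries and 0 in the input. The Mavs-/- libraries had 18 to 19 of the 20 large intestine genes without MDA5 and 8 to 9 with it. What part these transcripts have in the differences described below was not tested, and values restricted to genes with an exonic peak in at least 2 of the 3 input libraries are given beside them.

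**Figure D1:**
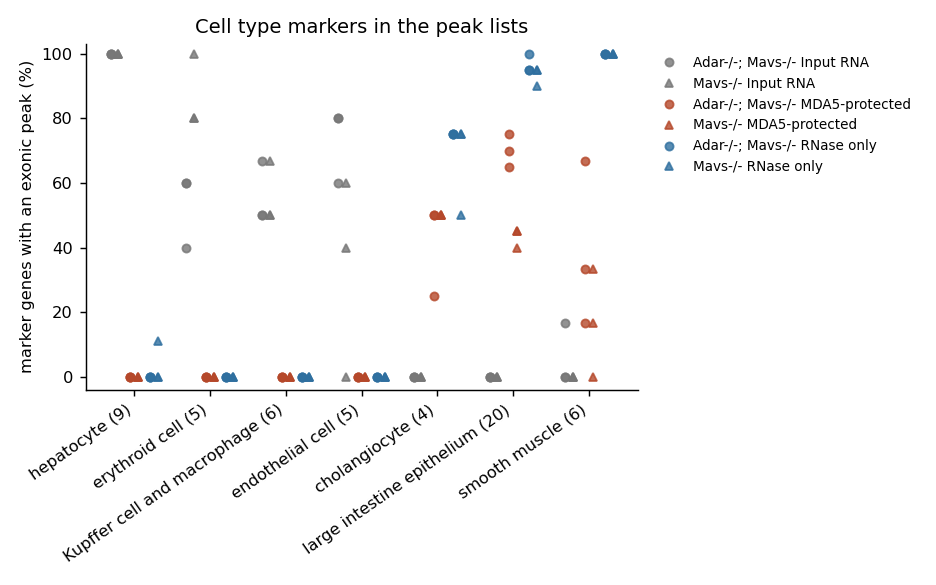
Share of each marker list (%, vertical axis, list size in brackets) with an exonic peak, 1 point per library, by fraction (colour) and genotype (shape). The hepatocyte, erythroid, Kupffer cell and endothelial lists lie above 0 in input RNA, apart from endothelial markers in Mavs-/- input replicate 1 (0 of 5), and at 0 in digested libraries apart from 1 hepatocyte marker in 1 Mavs-/- RNase only library, and the large intestine list lies at 90% or more in RNase only libraries, at 65% to 75% in the MDA5-protected libraries of Adar-/-; Mavs-/- and at 0 in input RNA.

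Fewer peaks were found with MDA5 than without it. The MDA5-protected libraries held 1636, 2768 and 2868 peaks (replicates 1 to 3) and the RNase only libraries 5798, 6094 and 5605. The groups did not overlap (difference −3408 peaks, exact two-sided permutation test p = 0.10, adjusted p = 0.14). With 3 libraries against 3, p = 0.10 is the smallest value the exact permutation test can give, and no difference between single libraries can pass 0.05 here. The peak lists contain no read counts, so that the depth behind a peak is unknown.

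The addition of MDA5 went with a shift from exons, mainly 3′ UTRs, to introns. Introns held 56.5%, 57.6% and 55.8% of the peaks of the MDA5-protected libraries and 14.5%, 33.6% and 40.1% of the peaks of the RNase only libraries. The 3 values with MDA5 lay close together and above all values without it (56.6 ± 0.88% against 29.4 ± 13.3%, SD, n = 3, difference 27.2 percentage points, exact permutation p = 0.10, adjusted p = 0.14). For 3′ UTRs the order was reversed, with 6.05%, 4.62% and 4.78% against 36.6%, 24.4% and 21.2% (difference −22.2 percentage points, exact permutation p = 0.10). Exons of all kinds together held 14.2%, 12.5% and 13.6% against 49.9%, 35.5% and 30.8% (difference −25.3 percentage points, exact permutation p = 0.10). Input RNA had 2.84% to 3.15% of its peaks in introns and 91.8% to 92.9% in exons.

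**Figure D2:**
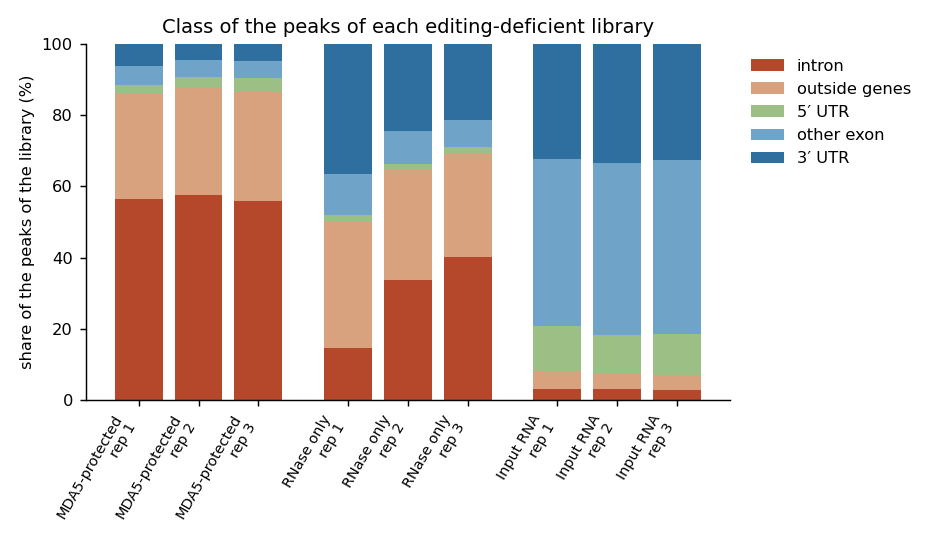
Share of the peaks (%, vertical axis) of each Adar-/-; Mavs-/- library (1 bar each) in introns, outside genes, in 5′ UTRs, other exons and 3′ UTRs. Introns take 55.8% to 57.6% of the MDA5-protected peaks, 14.5% to 40.1% of the RNase only peaks and 2.84% to 3.15% of the input peaks.

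RNase only replicate 1 stood apart from the other libraries of its fraction. It had the lowest intronic share (14.5%) and the highest 3′ UTR share (36.6%), and only 5.08% of its peaks of 300 nt or more were intronic, against 34.7% and 46.9% in RNase only replicates 2 and 3 and 71.3% to 75.5% in the MDA5-protected libraries. Without it the intronic difference was 19.8 percentage points and the 3′ UTR difference −17.6, in the same direction. Among peaks in genes with an input peak the separation was wider, with 85.5%, 85.8% and 82.5% intronic against 19.1%, 47.3% and 57.7%.

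Other measures of the libraries moved less. The share of peaks outside genes was 29.3%, 30.0% and 30.7% with MDA5 and 35.6%, 30.9% and 29.1% without, and the groups overlapped (difference −1.87 percentage points, exact permutation p = 0.60). Median peak length was 195, 193 and 184 nt against 168, 165 and 193 nt, again with overlap (exact permutation p = 0.30). When each library was cut to its 1636 peaks of largest area, the sign of the length difference changed (−48.5 nt, exact permutation p = 0.10). Peaks that overlapped a peak of the same library on the opposite strand, the arrangement that a duplex of sense and antisense RNA would leave, made up 8.56%, 5.13% and 4.43% with MDA5 and 22.8%, 11.5% and 9.10% without (difference −8.44 percentage points, exact permutation p = 0.10), and with equal numbers of peaks the groups overlapped. Peaks in a window from 250 nt before to 50 nt after an annotated gene start, a measure added after the data were seen, made up 4.58%, 5.28% and 6.14% against 0.931%, 1.99% and 2.23% (exact permutation p = 0.10).

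The Mavs-/- libraries, in which Adar is intact, gave the same direction for introns, 3′ UTRs and exons and the opposite one for the intergenic share (6.61 percentage points, exact permutation p = 0.50) and median length (−21.5 nt, exact permutation p = 0.60). The intronic difference was 18.4 percentage points, that of 3′ UTRs −22.7 and that of exons −25.0 (exact permutation p = 0.10 each). The contrast of both genotypes itself, tested by exact permutation within each genotype over 400 arrangements, was not past the threshold for any measure, the lowest p being 0.25 for median length.

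Introns were the largest class of the MDA5-only regions. With a minimum area of 1000 they held 32.8% of 58 regions, and 37.9% lay outside genes. Introns held 117 of the 230 (50.9%, 95% Clopper-Pearson interval 44.2 to 57.5%), and 86 lay outside genes (37.4%), 44 of them opposite a gene. Exons outside UTRs held 15 regions. A 5′ UTR held 10 and a 3′ UTR only 2 (0.870%), those of Vps35l and Aoc3. Over all 12584 regions the shares were 33.3% in introns, 32.0% outside genes and 23.4% in 3′ UTRs. The intervals cover the counting error of regions only, and because the regions were chosen in the same libraries the shares are a description without a test. A further feature of the set was its nearness to gene starts, with 25 regions in the start window (10.9%, against 2.55% of all regions) and 57 within 1000 nt of a gene start (24.8%, against 12.1%). It was not particular to this set. Of the 161 all-6 regions 18 lay in the start window (11.2%) and 59 within 1000 nt of a gene start (36.65%).

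The RNase-only regions were led by 3′ UTRs, with 371 of 961 (38.6%, interval 35.5 to 41.8%), followed by 309 outside genes (178 of them opposite a gene), 148 in introns (15.4%), 108 in other exons and 25 in 5′ UTRs. They were rare near gene starts, with 12 in the start window (1.25%). Regions paired with a region of the same set on the opposite strand numbered 142 (14.8%), against 10 of 230 in the MDA5-only set (2 of 217 without Ifih1) and 20 of 161 in the all-6 set. This count favours the larger set. A partner region of any kind was found for 33.8% of RNase-only, 8.70% of MDA5-only (5.07% without Ifih1) and 29.2% of all-6 regions, against 13.1% of all regions. The all-6 regions lay between, with 52 in introns (32.3%), 51 outside genes, 33 in 3′ UTRs (20.5%), 13 in 5′ UTRs and 12 in other exons. In this set 15 regions were mitochondrial (9.32%, against 0.222% of all regions), and 18 lay in a start window (11.2%).

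The contrast of classes was also seen where the gene was detected in input RNA. Of the MDA5-only regions 27 touched such a gene, 21 of them in introns and 0 in 3′ UTRs. Of the RNase-only regions 111 did, 77 of them in 3′ UTRs (69.4%) and 30 in introns. Of the all-6 regions 27 did, with 12 in introns (44.4%) and 8 in 3′ UTRs (29.6%). Over all 2182 regions that touched such a gene, 49.8% lay in introns and 37.4% in 3′ UTRs.

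Lengths differed by class as much as by set. MDA5-only regions had a median of 123.5 nt (quartiles 75 and 269 nt), RNase-only regions 221 nt (150 and 449 nt) and all-6 regions 277 nt (147 and 747 nt), against 182 nt over all regions. With equal numbers of peaks the medians were 174, 484.5 and 510 nt, and with a minimum area of 1000 they were 123.5, 437 and 476 nt. Among intronic regions the order of the first pair was turned round, with medians of 241 nt for MDA5-only, 172.5 nt for RNase-only and 426.5 nt for all-6 regions. Outside genes the medians were 82, 152 and 147 nt. In 3′ UTRs they were 496 nt for RNase-only and 697 nt for all-6 regions. Regions under 100 nt were 96 of the 230 MDA5-only regions (41.7%), 60 of the 961 RNase-only regions (6.24%) and 24 of the 161 all-6 regions (14.9%), against 14.5% of all regions. A region's length is the union of its peaks, and regions with a peak in more libraries can be longer for that reason alone.

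**Figure D3:**
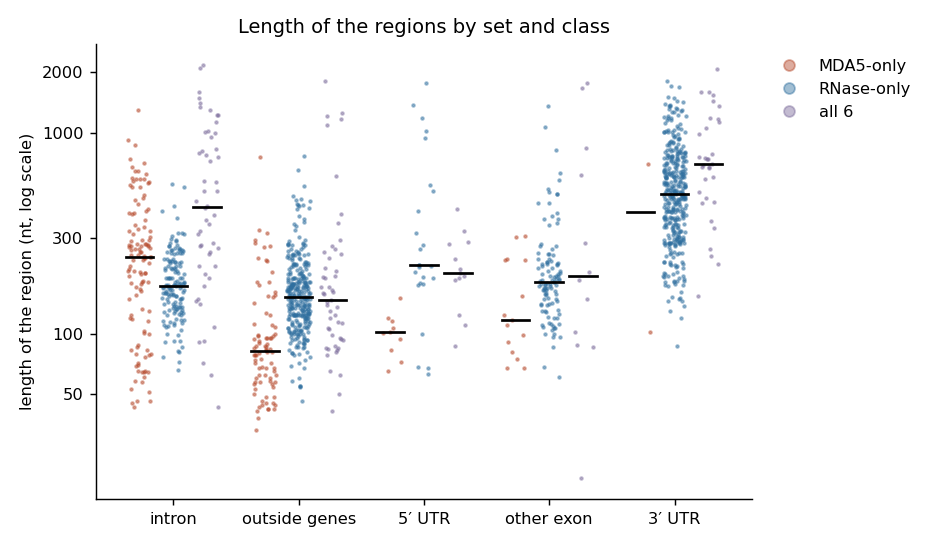
Length of each region of the 3 sets (nt, log scale), 1 point per region, by class, with a bar at the median. MDA5-only regions are longer than RNase-only regions in introns (median 241 against 172.5 nt) and shorter outside genes (82 against 152 nt), and the long RNase-only regions lie in 3′ UTRs.

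Short regions, most of them near gene starts, and exons of Ifih1 led the MDA5-only set by area. The highest ranked lay in the 5′ UTR of Pdzd8, a protein at contacts of the endoplasmic reticulum with other membranes (chr19:59345755-59345861, minus strand, 107 nt), with areas of 72912, 114023 and 94996 in MDA5-protected replicates 1 to 3 and no peak without MDA5. The next was the Eif3f region printed above, in the first exon of a subunit of translation initiation factor eIF3, with areas of 20502, 22251 and 27722. Both had a peak in all 3 input libraries and in all 3 Mavs-/- MDA5-protected libraries, and none in the Mavs-/- RNase only libraries. Behind them came a region outside genes (chr15:99002893-99002957, plus strand), the 5′ UTR of Ppp1r13b, which encodes a p53-binding protein, with areas of 3686, 4826 and 4354, and a region opposite the start of Dtnbp1, which encodes a subunit of an endosomal sorting complex (chr13:45002065-45002188, plus strand). The Dmwd region had areas of 1456, 1706 and 1264 and the Dbp region, in the gene of a circadian transcription factor, 574.6, 540.3 and 641.5, close to the smallest deposited area of 500. Exons of Ifih1 took the last 3 of the 8 leading places.

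The 3 longest MDA5-only regions were intronic and the next lay outside genes. They were in Cnot4, a ubiquitin ligase of the CCR4-NOT complex (chr6:35106071-35107375, minus strand, 1305 nt, areas of 1247, 3126 and 2355), in Rnf217, another ubiquitin ligase (923 nt), in Orc4, a subunit of the origin recognition complex (874 nt, areas of 502.9, 1594 and 1094), and outside genes on chromosome 2 (761 nt). Unlike Pdzd8 and Eif3f, these recurred little, and a peak in Mavs-/- MDA5-protected libraries was found in 1 library for Cnot4, 0 for Rnf217, 0 for Orc4 and 1 for the region on chromosome 2.

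Long exonic regions, most of them in 3′ UTRs, led the RNase-only set. A 1775 nt region of Misp, an actin-bundling protein of microvilli (chr10:79825661-79827435, plus strand), had areas of 8476, 6374 and 5228 in RNase only replicates 1 to 3 and no peak with MDA5, and it counts as 5′ UTR because a transcript's 5′ UTR lies in it. The 3′ UTR of Sectm1b (chr11:121053426-121055112, minus strand, 1687 nt) had 7633, 4831 and 4675, and that of Fhl1, a LIM domain protein of muscle, 5513, 5061 and 4227. Clec2h (936 nt), Endod1 (1517 nt), Cldn8, a tight junction claudin (1817 nt), and B3galt5, a galactosyltransferase (1709 nt), were 3′ UTR regions as well. All 6 of Misp, Sectm1b, Fhl1, Clec2h, Endod1 and the Prr15l region (1188 nt) had a peak in all 3 Mavs-/- RNase only libraries and none in input RNA. The set also held a mitochondrial region over mt-Cytb, a subunit of respiratory complex III (areas of 20414, 4364 and 3204), which had a peak in every input library, and a 67 nt region of Ltbp3.

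The all-6 regions included those of the largest area in the digested libraries. A 250 nt region opposite Gm12896 (chr4:122122845-122123094, minus strand) had areas of 2983923, 4771246 and 5935815 with MDA5 and 726582, 3960242 and 1403361 without. Short regions outside genes on chromosomes 1, 2 and 3 and the 5′ UTR of Mpped1 followed (areas of 33578, 29887 and 32249 with MDA5 and 105037, 46724 and 53048 without for the latter). A 95 nt region opposite Foxo1, a forkhead transcription factor (chr3:52269789-52269883, minus strand), had areas of 7717, 19649 and 11834 with MDA5 and 69445, 42643 and 26545 without. All of these had a peak in all 3 input libraries too. The mitochondrial regions among the leaders were that of the light-strand transcript of mt-Nd6 (areas of 11797, 29110 and 26873 against 14761, 51174 and 45244) and that of mt-Co2, mt-Atp8, mt-Atp6 and mt-Co3. The 4 longest regions of the set were intronic, mitochondrial or outside genes, with 2187 nt in Tmlhe, an enzyme of carnitine synthesis, 2102 nt in Ankrd13c, 2071 nt over mt-Nd4 and mt-Nd5, and 1821 nt outside genes on chromosome 1. In Tmlhe the areas were 5501, 6822 and 8679 with MDA5 and 658.7, 5820 and 7746 without. The smallest was that of RNase only replicate 1, but depth is unknown and areas of different libraries are not on a common scale.

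RNase only replicate 1 decided what counted as all-6. Among the regions with a peak in 5 of the 6 libraries, 316 lacked one in RNase only replicate 1. These 316 regions were intronic in 205 cases (64.9%) and had a median length of 440 nt. Far fewer lacked a peak in MDA5-protected replicates 1, 2 or 3 (40, 30 and 58 regions) or in RNase only replicates 2 or 3 (2 and 2 regions). Without RNase only replicate 1 the set of regions shared by all libraries grew from 161 to 478, and 53.8% of them were intronic and 7.32% in 3′ UTRs, in place of 32.3% and 20.5%. The RNase-only set without that library held 1838 regions, 27.5% of them in 3′ UTRs and 29.4% in introns, in place of 38.6% and 15.4%. The MDA5-only set held 235 regions without it, and 521 without MDA5-protected replicate 1, the list with the fewest peaks.

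Ifih1 itself carried the densest group of MDA5-only regions. Of the 230 regions 13 lay in it, 8 on its own strand and 5 on the opposite strand, and all of them overlapped exons. The gene (chr2:62595798-62646255, minus strand, 16 exons, 1025 codons) had 14, 13 and 14 own-strand peaks in MDA5-protected replicates 1 to 3, with summed areas of 32599, 36418 and 32667, and ranked 3, 5 and 6 among the genes of these libraries. In RNase only replicates 1 to 3 it had 5, 1 and 2 peaks with areas of 3135, 553.5 and 1711 and ranks of 264, 2140 and 558. As a gene it therefore belongs to the all-6 set. The 6 input libraries of both genotypes had no peak in it on either strand.

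The Ifih1 peaks followed the coding sequence. With MDA5 they covered 77.6%, 74.9% and 79.0% of the coding bases, starting at codon 230, 257 and 216 and ending at the last codon, 1025, and they reached only 3 to 4 nt into a 3′ UTR of 2111 nt. Exons 1 and 2, up to codon 208, had no peak in any of the 6 MDA5-protected libraries of both genotypes, and exons 4 to 16 had a peak in all 6. The opposite strand had 5, 6 and 6 peaks between codons 314 and 936. The recombinant protein was expressed from a mouse Ifih1 clone without the CARD part, and whether nucleic acid of that clone reached the libraries was not tested. The RNase only libraries of Adar-/-; Mavs-/- covered 26.6%, 6.21% and 9.53% of the coding bases, at codon 682 or later. In Mavs-/- RNase only replicate 1, however, 16 peaks on each strand covered 79.2% and 100% of the coding bases from codon 1, whereas replicate 2 had none and replicate 3 had 2. Without Ifih1 and its opposite strand 217 MDA5-only regions remained, 53.9% of them intronic.

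**Figure D4:**
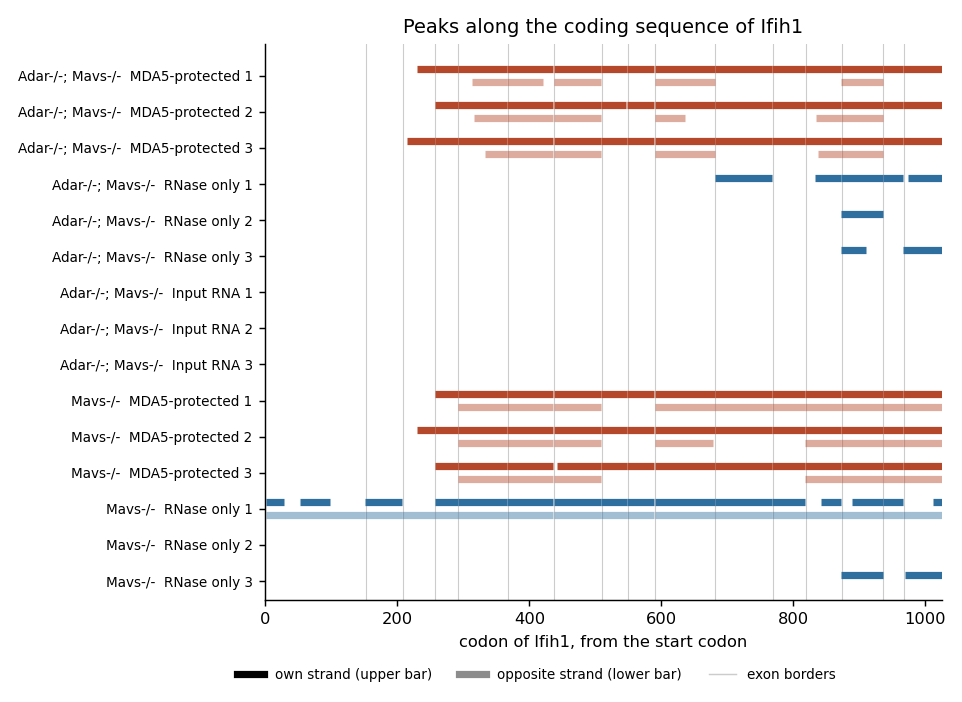
Position of the peaks along the coding sequence of Ifih1 (codon, horizontal axis) in 15 libraries, on the gene's own strand (upper bars) and the opposite strand (lower bars), with exon borders in grey. All 6 MDA5-protected libraries are covered from codon 216 to 257 onwards, input RNA is empty, and only Mavs-/- RNase only replicate 1 is covered from codon 1; the Mavs-/- input libraries, not drawn, had no peak.

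The sets were then looked up in the 6 digested Mavs-/- libraries, which had no part in choosing them. The MDA5-only regions had a peak in 62.6%, 62.6% and 62.2% of cases in the Mavs-/- MDA5-protected libraries and in 7.39%, 3.91% and 6.09% in the Mavs-/- RNase only libraries (difference 56.7 percentage points, exact permutation p = 0.10, adjusted p = 0.10). Without Ifih1 the shares were 60.4% in each of the former and 1.84%, 4.15% and 6.45% in the latter. For the RNase-only regions they were 1.15%, 0.312% and 0.728% against 69.5%, 46.4% and 32.0% (difference −48.6 percentage points, exact permutation p = 0.10). The all-6 regions were found in 74.5%, 66.5% and 65.8% against 91.9%, 90.1% and 88.8% (difference −21.3 percentage points, exact permutation p = 0.10). For regions in no set the shares were 10.4%, 6.48% and 6.22% against 27.6%, 20.6% and 11.6%. None of the groups of libraries overlapped in these 4 comparisons. Region by region the recurrence was partial, since 65 of the 230 MDA5-only regions (28.3%) and 174 of the 961 RNase-only regions (18.1%) met their own rule again in Mavs-/-, and 77 of the 161 all-6 regions (47.8%) had a peak in all 6 Mavs-/- libraries. No peak in any of the 6 was found for 44 MDA5-only, 223 RNase-only and 2 all-6 regions.

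**Figure D5:**
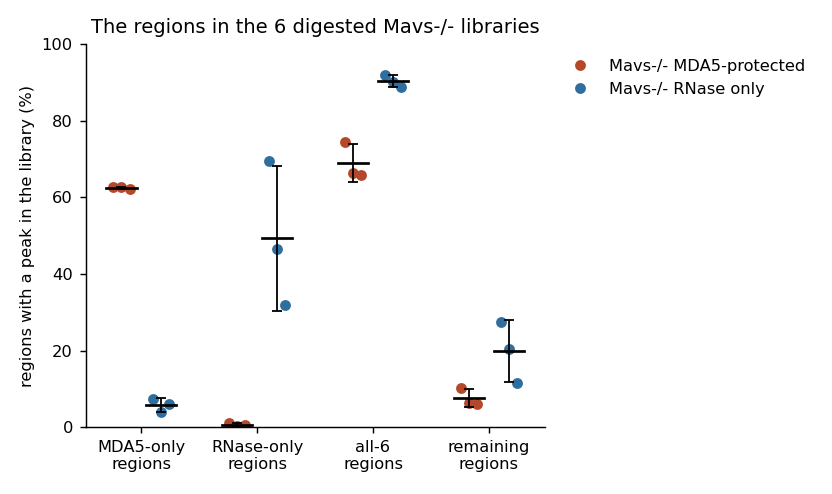
Share of each set of regions (%, vertical axis) with a peak in each digested Mavs-/- library, 1 point per library, with mean and SD (n = 3). MDA5-only regions recur at 62.2% to 62.6% with MDA5 and at 3.91% to 7.39% without, and RNase-only regions at 0.312% to 1.15% and 32.0% to 69.5%.

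Most members of the 3 sets did not overlap an input peak. Input was the control in calling the digested peaks, so that low overlap is favoured by the calling itself and is not read as a trait of the members. Of the MDA5-only regions 4.35% to 5.65% overlapped a peak of an Adar-/-; Mavs-/- input library, of the RNase-only regions 2.71% to 4.16%, of the all-6 regions 18.6% to 20.5% and of regions in no set 3.13% to 4.40%.

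At the level of genes, MDA5-only members of the full set had mostly intronic peaks. They were longer than RNase-only members but shorter than all-6 members. Peaks lay in introns alone in 46 of the 63 MDA5-only genes (73.0%), in 120 of the 545 RNase-only genes (22.0%) and in 91 of the 189 all-6 genes (48.1%), against 37.2% of all genes with a peak. The reverse held for genes with exonic peaks alone, with 12 (19.05%), 378 (69.4%) and 65 genes (34.4%), against 56.55% of all genes with a peak. Median gene length was 61700 nt in the MDA5-only, 29117 nt in the RNase-only and 87974 nt in the all-6 set, against 32908 nt over all genes with a peak. A long gene has more intron in which a peak can fall. The order of the MDA5-only and all-6 sets was not kept among genes with an exonic peak in at least 2 input libraries. There, peaks lay in introns alone in 5 of 11 MDA5-only (45.45%), 15 of 100 RNase-only and 21 of 46 all-6 genes (45.65%). Median lengths of these genes were 48603, 27952 and 49376 nt. Protein-coding genes made up 53 of 63 (84.1%), 503 of 545 (92.3%) and 178 of 189 (94.2%), against 87.4% of all genes with a peak, and the other MDA5-only genes were 5 antisense genes, 4 lincRNAs and 1 unprocessed pseudogene. Over all genes with a peak these types made up 1.74%, 2.55% and 0.300%. Overlapping genes can count the same peaks: the lincRNAs Gm45847 and Gm45846 had identical areas, as had the protein-coding Schip1 and Iqschfp. No exonic input peak was found for 48 of the MDA5-only genes (76.2%), 396 of the RNase-only genes (72.7%) and 131 of the all-6 genes (69.3%). Over all genes with a peak the share was 64.35%, so that it is no trait particular to the sets.

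Behind Pdzd8 and Ppp1r13b, the MDA5-only genes with the largest areas were Shisa4, with exonic peaks of 1786, 1780 and 1836 in MDA5-protected replicates 1 to 3, and Acbd3, a Golgi protein, with intronic areas of 1692, 1625 and 1761. Within these libraries Shisa4 ranked 133, 230 and 233 and Acbd3 147, 251 and 248. Agfg1 (areas of 797.6, 3048 and 1534) and the cytoskeletal Epb41l5 (774.5, 1425 and 2546), both mainly intronic, followed. Agfg1 ranked 353, 139 and 284 and Epb41l5 370, 294 and 154. Dmwd and Abhd3 completed the protein-coding leaders. The noncoding leaders were the pseudogene Gm16332, with intronic areas of 664.8, 4753 and 1451, the lincRNA Gm13200 and the antisense genes A230077H06Rik and Gm12963. Antisense genes overlap genes of the other strand, and the library kit preserved strand.

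The RNase-only genes with the largest areas had exonic peaks only and, apart from mt-Cytb, no input peak. They were Slc26a2, a sulphate transporter (areas of 15369, 6794 and 9017 in RNase only replicates 1 to 3), mt-Cytb, Sectm1b, Endod1, Maoa, the mitochondrial monoamine oxidase (9413, 8819 and 4194), Gsdmc2, a gasdermin, Ezr, the microvillar membrane linker ezrin (4222, 7038 and 5201), Cdh17, an intestinal cadherin (9099, 5142 and 3826), Clec2h and Prr15l. Of the noncoding or special types the first were D030028A08Rik, whose peaks are those of Prr15l, mt-Tt, Igha, the constant region of immunoglobulin A (2137, 1571 and 1185), and Gm15401. Of the 20 large intestine genes 3 were RNase-only (Cdh17, Vil1 and Hoxd13), 12 were all-6 and 5 were in no set. Over all genes with a peak 11.7% were RNase-only and 4.05% all-6. The list was drawn up after the peaks of its genes were noticed, so that these counts are a description only.

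All-6 genes with intronic peaks only and those with exonic peaks only were ordered differently in their ranks by area. The 33 all-6 genes with both exonic and intronic peaks (17.5%) and the 13 mitochondrial genes were left out of this comparison. The 91 genes with intronic peaks only (median length 197550 nt) had median ranks of 170, 184 and 203 in the MDA5-protected libraries, among 689, 1048 and 1110 genes, and of 907, 308 and 238 in the RNase only libraries, among 2619, 2468 and 2244. The 52 nuclear genes with exonic peaks only (21018.5 nt) had median ranks of 193, 281.5 and 305.5 with MDA5 and of 76, 105 and 156 without. In other words, the exonic genes stood nearer the top of the RNase only libraries than the intronic ones, most clearly in replicate 1, and behind them in the MDA5-protected libraries. Dpyd, the first enzyme of pyrimidine breakdown, had 262 intronic peaks over the 6 libraries and ranked 5, 3 and 2 with MDA5 and 79, 1 and 1 without. Slc22a27, an organic anion transporter, had 107 intronic peaks and ranked 8, 4 and 39 against 156, 6 and 22. Memo1, by contrast, had exonic peaks and ranked 47, 104 and 93 against 3, 26 and 47. The anion exchanger of the colon, Slc26a3, had areas of 1252, 527.3 and 1292 against 14264, 7721 and 6143 and ranked 224, 946 and 349 against 26, 82 and 119. Other leaders were Mpped1 and the mitochondrial mt-Nd5, mt-Atp6, mt-Atp8, mt-Co1, mt-Co3 and mt-Nd3, and among other gene types mt-Tg, mt-Ti, Gm37194 and the pseudogene Cyp2d36-ps, with 29 intronic peaks.

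Members from the gene lists of liver function and of the interferon response are to be read against the shares of all genes with a peak (1.35% MDA5-only, 11.7% RNase-only, 4.05% all-6), at which lists this short hold few members or none. Among 61 plasma protein genes 15 had a peak, and none was MDA5-only or RNase-only. Among 93 cytochrome P450 genes 22 had a peak, and Cyp2c29 (intronic) and Cyp2c55 (exonic, areas of 2484, 831.9 and 1550 against 14246, 10194 and 7914) were all-6 and Cyp2d34 was RNase-only. Among 82 cytosolic ribosomal protein genes 38 had a peak and 1, Rpl23, was RNase-only. Fatty acid oxidation and ketogenesis (15 of 26 genes with a peak) gave Ppara, its transcriptional regulator, as all-6 and the enzyme Bdh1 and the carnitine carrier Slc25a20 as RNase-only, and the growth hormone and IGF axis (6 of 18) gave Ghr, the growth hormone receptor, as all-6. Urea cycle and amino acid enzymes (11 of 30), histones (3 of 67), erythroid genes (1 of 19) and nuclear lncRNAs (3 of 32) gave no member, and the 15 small structured noncoding RNAs had no peak.

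Of 40 interferon-stimulated genes and sensors of double-stranded RNA 13 had a peak and none was MDA5-only. Oas1g, an oligoadenylate synthetase, was RNase-only with exonic peaks (areas of 1408, 622.5 and 649.7 in RNase only replicates 1 to 3), and Ifih1 was all-6. Zinc finger genes, a list taken by symbol (Zfp, Zkscan, Zscan) without regard to their domains, were the only list with MDA5-only genes, 2 of 42 with a peak. These were Zfp143 (942.3, 813.5 and 989) and Zfp217 (884.1, 918.9 and 916.4), both intronic, beside 2 RNase-only (Zfp697 and Zfp706) and 1 all-6 gene (Zfp704). Of the targeted genes, Adar had 2 intronic peaks in RNase only replicate 2 and none in the other digested libraries of Adar-/-; Mavs-/-, and was in no set. Members of families with near-identical copies (Oas1g, Gsdmc2, Cyp2c29, Cyp2c55, Cyp2d34 and Slc22a27) are uncertain where the aligner could place a read in several copies.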

How the data were processed

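Total liver RNA of Adar-/-; Mavs-/- and Mavs-/- mice was sequenced as MDA5-protected, RNase only and Input RNA, with 3 libraries per genotype and fraction, grouped by their labels. Reads were cut with Trim Galore 0.6.6 and mapped to GRCm38 with NextGenMap by the authors, whose Genrich 0.6.1 runs treated each strand separately and took the input of the same genotype as control of every digested library. The deposited score of a peak is the area under its significance curve (at least 500), and its deposited −log10 p-values, raw and adjusted, were read but carry no result here. The lists hold no read counts, so depth is unknown.

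Peaks of the 6 digested Adar-/-; Mavs-/- libraries that overlapped or touched on a strand were merged, and classed with GENCODE M21, where a 5′ UTR took precedence over a 3′ UTR, then other exons, introns and intergenic sequence. Python 3.11.15 was used with scipy 1.17.1, numpy 2.4.6 and matplotlib 3.10.9. A gene had a peak where 1 base of its body was covered on its own strand. Libraries were compared by two-sided exact permutation tests of the difference in means (20 arrangements), with Benjamini-Hochberg adjustment over 7 measures. Shares of regions carry 95% Clopper-Pearson intervals. The code for the calls was run on simulated data, where 200 of 200 MDA5-only, 300 of 300 RNase-only and 100 of 100 all-6 planted regions were recovered. Each planted region had a peak in every library of its set and lay apart from the others. Recovery was therefore fixed by the design, and the simulation checks the code and not the calls on real peaks.

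Libraries of equal replicate number were weakly alike. Over 12584 regions the deviations from the group means correlated at 0.19, 0.13 and 0.17 for equal numbers and at −0.15 to −0.02 for unequal ones. Deviations from a mean cancel out within a group, so that the negative values are no separate result. The labels do not say what libraries of equal number share. In each region set the 8 regions with the best mean rank of area and the 4 longest were named, in each gene set the 10 best ranked and the 4 best ranked that are not protein coding, with the members of the gene lists, apart from some that are not reported here, and Adar, Mavs, Rnf168, Knl1 and Zkscan3. The other items named were chosen after their values were seen. The members and lists were chosen with earlier results of these data known. The intestinal, smooth muscle and start-window measures and the restriction to genes with an input peak were added after the data were seen. Alternatives were a minimum area of 1000, equal numbers of peaks, 2 of 3 libraries, merging over 200 bp, other overlap rules, ignored strands and leaving out each library, Ifih1 or the mitochondrial genome. Base composition over all peaks, repeats and folding were not analysed here.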

Additional observations from a re-analysis of the deposited data

How the results depend on the processing

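Of 73 alternative values of the differences between libraries, 69 kept their direction. Both counts include, for each of the 7 measures, the value with the replicate number as a block. That value repeats the main difference and could not change direction. The intergenic difference became 1.28 percentage points with a minimum area of 1000, 2.18 with equal numbers of peaks and 0.0143 without RNase only replicate 1 (−3.26 to 0.0143 on leaving out 1 library each). The difference in median length became −48.5 nt with equal numbers of peaks. With the replicate number as a block, an exact sign-flip permutation test over 3 pairs gave p = 0.25, its smallest possible value, for the intronic share (difference 27.2 percentage points), so that no test could pass 0.05 with or without the pairing. Over the leave-one-out fits the intronic difference was 19.8 to 32.6 percentage points and the 3′ UTR difference −25.3 to −17.6. The causes of the changes were not tested unless given.

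Set sizes depended on the calls. With a minimum area of 1000, which leaves fewer peaks, the MDA5-only, RNase-only and all-6 regions numbered 58, 228 and 35 and the genes 16, 176 and 34. With 1636 peaks in each library the MDA5-only, RNase-only and all-6 regions numbered 257, 158 and 61, so that the order of the MDA5-only and RNase-only sets turned, and the genes 101, 127 and 77. A peak in 2 or more of 3 libraries, a looser rule, gave 636, 2918 and 1024 regions and 159, 1299 and 598 genes. The restriction to genes with an input peak left 27, 111 and 27 regions and 11, 100 and 46 genes, and exonic peaks alone left 15 MDA5-only and 67 all-6 genes. Leaving out 1 library gave 235 to 521 MDA5-only, 1001 to 1838 RNase-only and 162 to 478 all-6 regions, and 71 to 131, 579 to 882 and 192 to 335 genes. MDA5-protected replicate 1 gave the largest MDA5-only counts (521 regions and 131 genes), RNase only replicate 1 the 1838 RNase-only regions and the 478 regions and 335 genes of all-6, and RNase only replicate 3 gave 1788 RNase-only regions and 882 genes. The intronic share of MDA5-only regions was 32.8% with a minimum area of 1000, and in the other settings 48.2% or more. GC content, A content, repeated share and folding energy of the peaks were planned and not run, since no genome sequence was used here. Depth is unknown, and a missing peak does not show that a fragment was absent.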

Other observations

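Fragments of Rnf168, Knl1 and Zkscan3, which the study chose on these samples for cloning, fell just outside the MDA5-only rule. Rnf168, a ubiquitin ligase of the DNA damage response, had exonic peaks with areas of 568 and 761.8 in MDA5-protected replicates 1 and 2, and Knl1, a kinetochore protein, had areas of 638.6 and 502.6 in the same libraries. Zkscan3, a zinc finger repressor, had 521.9 and 1013 in replicates 2 and 3. None of these genes had a peak in any RNase only library of Adar-/-; Mavs-/-, and each lacked one in 1 MDA5-protected library. Of all regions, 406 had a peak in 2 MDA5-protected and no RNase only library, and 1957 in 2 RNase only and no MDA5-protected library.

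Further long genes with intronic peaks in all 6 libraries, chosen after their values were seen, were Thrb, a thyroid hormone receptor, with 89 peaks and areas of 15323, 30302 and 19273 with MDA5 and 2973, 27337 and 24612 without, and F8, coagulation factor VIII, with 77 peaks and areas of 17296, 33847 and 32729 against 2660, 34897 and 38949. By area within a library, Thrb ranked 280 in RNase only replicate 1 and 7 to 16 in the other 5 libraries, and F8 323 against 5 to 9. Epithelial genes with exonic peaks in all 6 libraries included Muc13, a transmembrane mucin, with areas of 2886, 3534 and 3781 with MDA5 and 16665, 17173 and 13391 without, ranked 68, 114 and 90 against 16, 20 and 39, and Clca1, a secreted goblet cell protein, with 1633, 1979 and 1971 against 18278, 13742 and 13144, ranked 158, 197 and 212 against 15, 33 and 41.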
